A study of Mus musculus with 20 samples.

Results

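Ccl22, Ccl17, Ccl3, Ccl4, Ccl5 and Cxcl16 are 6 genes that encode chemokine ligands, the small secreted proteins that draw leukocytes along a gradient. They were picked by gene symbol, and they make up 6 of the 41115 genes counted in 20 mouse libraries of polyadenylated RNA labelled as spleen. CCL22 and CCL17 bind the receptor CCR4 and attract T helper type 2 cells and regulatory T cells, and activated B cells, dendritic cells and macrophages are known to make them. CCL3 and CCL5 bind CCR1, and with CCL4 they recruit effector T cells, monocytes and natural killer cells to inflamed tissue. CXCL16 is made as a membrane-bound protein, is released by the proteases ADAM10 and ADAM17, and binds CXCR6.

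The stimulated arm received LPS, IL4 and TGFb, a cocktail used to switch on activation-induced deaminase (AID), and the untreated arm received none of them. LPS signals through Tlr4 to NF-kappaB, IL-4 through STAT6, and TGF-beta through Smad proteins. Each arm has 10 libraries, 1 for each of 0, 15, 30, 60, 120, 180, 360, 720, 1440 and 2880 min, which are 0 min to 48 h. The design text speaks of 1 mouse per arm and gives no strain, sex, age, dose or route, and the sources used here do not say whether the animals or cells taken from them were stimulated. The times therefore stood in for replicates, so the p-values below measure the spread between times and not between animals. Early is 15, 30 and 60 min, middle is 2, 3 and 6 h, and late is 12, 24 and 48 h. Where the arms are said not to overlap in a phase, 3 libraries stand against 3. The share of all genes without overlap was not counted, so such statements are descriptions. In tests between the arms with time as a factor, the stimulated and the untreated library of 1 time form a pair. Tests with a spline (a smooth curve) of time and tests within an arm use no pairs.

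Libraries held 36873155 to 60918651 counts, and 3 counts, the limit that a count of 0 allows, stood for 0.0492 to 0.0814 CPM (counts per 1000000 counts of the library) by counting error alone. The 2 libraries of every pair came from different sequencing lanes, lane 4 held stimulated libraries only and lane 1 untreated libraries only, so that arm and lane cannot be told apart within a pair. Of the B cell markers, 11 of 12 passed the filter on low counts of 1 CPM in 3 libraries, against 4 of 10 T cell markers, 3 of 11 macrophage and monocyte markers, 5 of 10 dendritic cell markers, 1 of 8 NK cell markers and none of the neutrophil or the basophil and mast cell markers. The summed B cell markers were 1485 to 2715 CPM in the stimulated libraries and 2095 to 2760 CPM in the untreated ones. The T cell receptor component Cd3e stayed at or below 0.151 CPM in the stimulated libraries and 0.237 CPM in the untreated ones, and the neutrophil genes S100a8 and S100a9 had 0 counts in all 20, so these libraries carried B cell transcripts and little of what else a whole spleen holds. In such bulk RNA, fewer cells of a type and less RNA per cell cannot be told apart.

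Ccl22 and Ccl17 lie 66.4 kb apart from end to end on chromosome 8 (GRCm38, GENCODE M21), Ccl22 at chr8:94745590-94751699 and Ccl17 at chr8:94810453-94812036, both on the plus strand, with the fractalkine gene Cx3cl1 between them. Their promoters, 250 bases before to 50 after the start in RefSeq on GRCm38.p6, are shown because these neighbours serve the same receptor and were counted at very different levels. The Ccl22 window is chr8:94745434-94745733 and the Ccl17 window chr8:94810203-94810502, both on the plus strand. The RefSeq start used for Ccl22 lies downstream of the GENCODE start given above, while that of Ccl17 matches it. Measured from the GENCODE starts, the Ccl22 window thus reaches less far upstream than the Ccl17 window. Capitals mark matches to the STAT-type motifs TTCNNNNGAA and TTCNNNGAA.
Ccl22: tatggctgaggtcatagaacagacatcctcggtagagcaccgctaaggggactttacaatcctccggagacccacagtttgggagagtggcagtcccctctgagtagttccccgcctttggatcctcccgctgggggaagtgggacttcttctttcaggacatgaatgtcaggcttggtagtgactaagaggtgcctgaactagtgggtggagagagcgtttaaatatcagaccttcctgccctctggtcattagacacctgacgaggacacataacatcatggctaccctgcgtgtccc
Ccl17: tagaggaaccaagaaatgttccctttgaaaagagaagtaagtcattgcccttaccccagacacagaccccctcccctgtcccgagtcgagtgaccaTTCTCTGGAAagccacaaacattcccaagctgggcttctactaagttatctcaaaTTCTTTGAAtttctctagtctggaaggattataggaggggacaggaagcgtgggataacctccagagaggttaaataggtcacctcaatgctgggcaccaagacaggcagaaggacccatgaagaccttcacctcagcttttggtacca
The Ccl17 window holds 1 match to TTCNNNNGAA, the spacing STAT6 prefers, beginning 154 bases before the start, and 1 match to TTCNNNGAA beginning 99 bases before it, each read on both strands. Of 32851 RefSeq promoters of this length, 7.0% hold the longer and 8.3% the shorter motif. The Ccl22 window holds neither, nor a match to the kappaB consensus (in 4.5% of promoters), the AP-1 motif TGANTCA (7.8%) or TATAAA (13.6%), on either strand. The Ccl17 window also holds no match to the kappaB consensus, the AP-1 motif or TATAAA. A Ccl3 window of the same length, not shown, holds none of these motifs. A match is a description of letters, not a site in use.

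Ccl22 was the most abundant of the 6 ligands per kilobase of transcript in each of the 20 libraries, and it rose with stimulation. It had 1378 CPM in the stimulated and 1454 CPM in the untreated library at 0 min, and it was 3.37-, 4.84- and 4.21-fold higher in the stimulated than in the untreated library at 12, 24 and 48 h. In the early phase Ccl22 had 1424, 1459 and 2010 CPM in stimulated libraries, against 1504, 1384 and 1563 CPM in untreated ones, and the arms overlapped. In the middle phase it had 4706, 5724 and 6842 CPM in stimulated libraries at 2, 3 and 6 h, against 1948, 2085 and 2204 CPM in untreated ones. In the late phase it had 6885, 7749 and 6939 CPM in stimulated libraries at 12, 24 and 48 h, against 2041, 1600 and 1646.5 CPM in untreated ones. Every stimulated library from 2 h on lay above every untreated library.

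**Figure D1:**
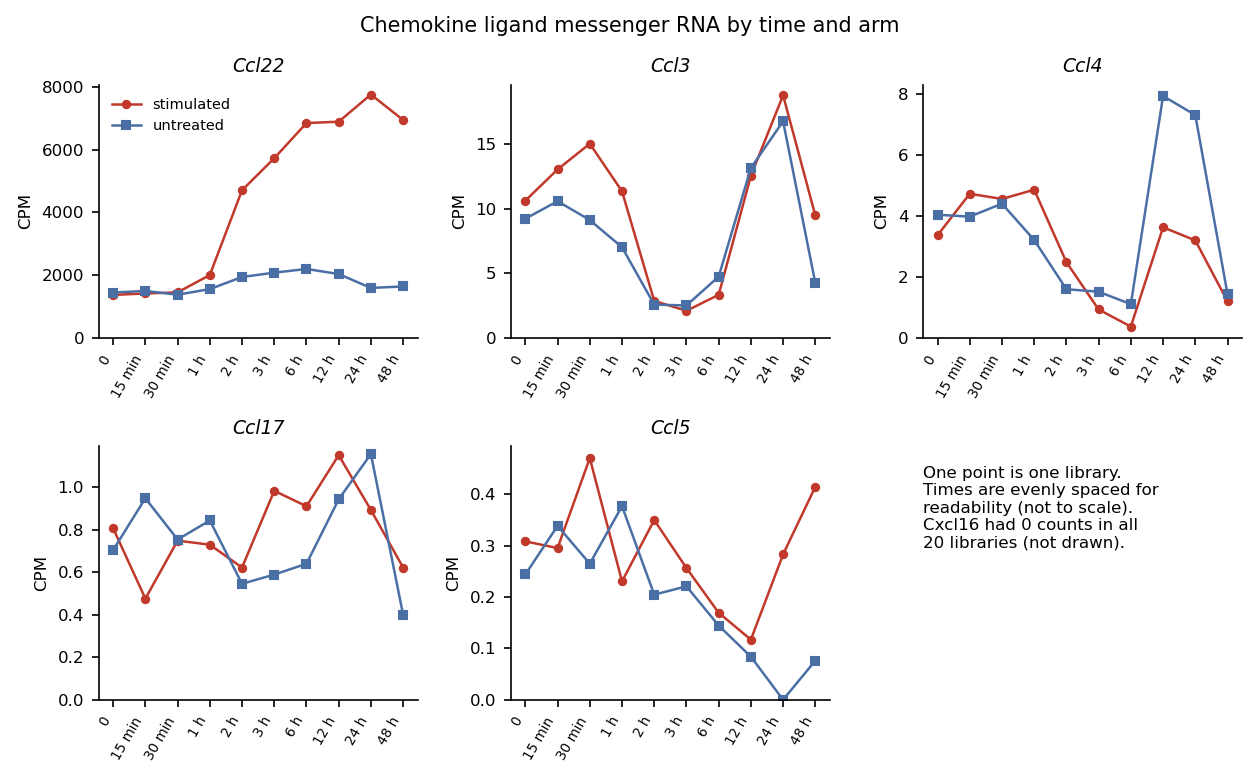
CPM (vertical axes, each from 0) of 5 chemokine ligands at 10 times (horizontal axes, evenly spaced and not to scale) in the stimulated (circles) and untreated (squares) arm, 1 point per library. Ccl22 separates between the arms at 1 to 2 h and reaches 7749 CPM at 24 h in the stimulated arm, while Ccl3 and Ccl4 dip at 2 to 6 h in both arms.

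The test over early times found no difference for Ccl22 past the threshold, an adjusted p of 0.05 (log2 fold change 0.13 ± 0.10, SE; adjusted p = 0.557, edgeR's quasi-likelihood test with Benjamini-Hochberg adjustment over 12042 genes). Among the 3 ligands that passed the filter, 0 were called in the early phase, where 2.24% of all genes tested were called; 1 of the 3, Ccl3, had an unadjusted p under 0.05, and DESeq2 called 0. In the middle phase Ccl22 was 2.88-fold higher in stimulated libraries (log2 1.53 ± 0.10, adjusted p = 2.09e-05), and it was the 1 called ligand of 3, against 20.5% of all genes. In the late phase it was 4.20-fold higher (log2 2.07 ± 0.10, adjusted p = 1.65e-06), and 2 of 3 ligands were called, against 36.1% of all genes. Over all 9 times after 0 min the log2 fold change was 1.25 ± 0.26 (adjusted p = 0.00823), with 1 of 3 called against 22.3% of all genes; DESeq2 put that average at 1.26 with an adjusted p of 0.0519, and relative to the 0 min pair it was 1.34 with an adjusted p of 0.993.

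The arms drew apart with time. The late difference exceeded the early one by 1.94 ± 0.14 on the log2 scale (adjusted p = 8.48e-05; 1 of 3 ligands called, 19.7% of all genes). The late difference also exceeded the middle one by 0.54 ± 0.14 (adjusted p = 0.0458; 1 of 3 called, 6.74% of all genes), but that call held in 7 of 18 alternative settings and was lost when the pair of 15 min, 30 min, 2 h, 3 h, 24 h or 48 h was left out, with values of 0.44 to 0.68 over the times left out. A spline of time showed different courses in the 2 arms for Ccl22 (adjusted p = 5.66e-05; 1 of 3 called, 5.58% of all genes) and no call for Ccl3 (0.996) or Ccl4 (0.908). The middle and the late call for Ccl22 each held in 18 of 18 alternative settings, with late log2 fold changes of 1.84 to 2.20, the lowest with lane as a term beside a spline of time.

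Within the stimulated arm, Ccl22 was higher in middle than in early libraries by 1.95 ± 0.16 on the log2 scale (adjusted p = 3.26e-06), and higher in late than in early libraries by 2.29 ± 0.16 (adjusted p = 7.33e-07). Between late and middle libraries of that arm the difference was 0.34 ± 0.15 and did not pass (adjusted p = 0.128), though it did without the 6 h pair (0.475, adjusted p = 0.037). Most of the rise in this arm was therefore in place by 2 to 6 h. In the untreated arm Ccl22 also moved: it was 1.48-fold higher in middle than in early libraries (log2 0.56 ± 0.16, adjusted p = 0.0183), a call lost without the 15 min, 30 min or 3 h pair (adjusted p = 0.0538 to 0.0882). Late against early untreated libraries differed by 0.36 ± 0.16 (adjusted p = 0.0714), a difference that passed without the 1 h pair (0.047) or the 48 h pair (0.0473).

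Per kilobase of transcript, Ccl22 ranked 35th at 0 min in the stimulated arm among 28897 genes with a length in the annotation, 4th at 2 h, 1st at 24 h and 2nd at 48 h. In the untreated arm it ranked 34th at 0 min, 15th at 2 h and 19th at 48 h. Only rows whose symbol matched exactly 1 GENCODE M21 gene name were ranked, 28897 of the 41115 counted. Mitochondrial transcripts, immunoglobulin constant genes and rows under symbols that GENCODE M21 does not use are not among the rows ranked. At 24 h, 0.775% of all counts in the stimulated library came from Ccl22, against 0.160% in the untreated library. The gene was thus already among the most abundant transcripts ranked at 0 min, in both arms.

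Some markers of 2 cell types known to make CCL22 differed between the arms in the late phase, while other markers of these types stayed near 0. The summed macrophage and monocyte markers were 43.8 to 98.1 CPM in late stimulated libraries and 23.8 to 39.4 CPM in late untreated ones, and the summed dendritic cell markers 49.7 to 94.9 CPM in late stimulated and 34.6 to 45.7 CPM in late untreated libraries. Of 3 macrophage markers tested, 2 were called higher in late stimulated than in late untreated libraries, where 17.8% of all genes were higher and 18.3% lower: Emr1 (the F4/80 antigen, log2 3.16 ± 0.51) and Csf1r (the receptor of the growth factor CSF1, 1.11 ± 0.09). The other, Cd68, had a value in the opposite direction that did not pass in edgeR's test (-0.21 ± 0.09, adjusted p = 0.0992). The Emr1 value was 4.13 without the 12 h pair, 1.92 without the 48 h pair and 2.27 with 1 h counted as middle and 6 h as late. Within the arms, late against early, 1 of the 3 was called higher and 1 lower in the stimulated arm, where 54.9% of all genes were called. In the untreated arm 3 were called lower, where 42.6% of all genes were called. Emr1 was at 0.84 (adjusted p = 0.281) in stimulated and -2.83 (adjusted p = 0.00641) in untreated libraries. Of 5 dendritic cell markers, 3 were called higher in late stimulated libraries, among them Fscn1 (fascin, 3.02 ± 0.28) and Zbtb46 (a transcription factor, 1.75 ± 0.12), and Batf3 was lower (-1.17 ± 0.11). With lane beside a spline of time, Emr1 (2.61, adjusted p = 0.182), Fscn1 (2.45, 0.146) and Batf3 (-1.40, 0.0797) lost their calls. The macrophage and monocyte markers Cd14, Lyz2, Fcgr1, C1qa, C1qb, Mrc1, Marco and Ly6c2 did not pass the filter. The highest value among them in any library was 0.449 CPM (Mrc1, untreated). Of the dendritic cell markers below the filter, Siglech reached 1.15 CPM, Itgax 0.546 CPM, Cd209a 0.0754 CPM and Clec9a 0.0682 CPM at most. Clec10a had 0 counts in all libraries. In the middle phase, when Ccl22 was called too, the macrophage sums overlapped (37.6 to 52.5 CPM stimulated, 39.1 to 49.5 CPM untreated). There edgeR called 0 of 3 macrophage markers, with 0 of these 3 at an unadjusted p under 0.05 and 0 called by DESeq2. Of 5 dendritic cell markers edgeR called 1, Zbtb46 (1.01 ± 0.12, adjusted p = 0.000309), and Fscn1 did not pass (0.84 ± 0.29, adjusted p = 0.0629). Of all genes, 20.5% were called in that phase. The part of these cells in the Ccl22 result was not tested.

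Of the B cell markers, 5 of 11 tested were called lower in late stimulated than in late untreated libraries and none higher, against 18.3% of all genes lower and 17.8% higher. The largest differences were those of Cd22 (a B cell inhibitory receptor, -2.51 ± 0.19), Vpreb3 (-1.25 ± 0.15), Ms4a1 (CD20, -0.87 ± 0.09) and Ebf1 (a B lineage transcription factor, -0.72 ± 0.10). Lane beside a spline of time ended the calls of Ms4a1 (adjusted p = 0.0728) and Ebf1 (0.184), and Ebf1 also lost it relative to the 0 min pair (0.0634). Within the stimulated arm, 2 of the 11 were higher and 7 lower in late than in early libraries (54.9% of all genes called), and within the untreated arm 1 was higher and 2 lower (42.6%). Of 4 T cell markers 1 was called lower in late stimulated libraries (Lck, -0.61 ± 0.12), a call lost with a spline (-0.41, adjusted p = 0.277), with a spline and lane (-0.13, 0.923) and relative to the 0 min pair (-0.66, 0.132). The 1 NK cell marker tested was also lower (Prf1, perforin, -0.28 ± 0.09), a call that held in 10 of 18 alternatives and was lost, among others, without the 12 h (adjusted p = 0.112) or the 24 h pair (0.143). The neutrophil sum stayed at or below 0.272 CPM in stimulated and 0.434 CPM in untreated libraries. The sum of basophil and mast cell markers stayed at or below 0.488 CPM in stimulated and 0.0982 CPM in untreated libraries.

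Ccl17, the other CCR4 ligand, stayed near or below 1 CPM in both arms, too low to pass the filter for a test between them. It had 0.807, 0.476, 0.749, 0.730, 0.622, 0.984, 0.911, 1.15, 0.893 and 0.622 CPM in the stimulated libraries from 0 min to 48 h. In the untreated libraries it had 0.705, 0.948, 0.754, 0.844, 0.546, 0.589, 0.640, 0.944, 1.16 and 0.400 CPM. The libraries held 21 to 59 counts each, and the gene did not pass the filter. With no filter the log2 fold change was -0.38 early, 0.55 in the middle phase and 0.22 late. The stimulated library was lower at 3 of 3 early times, and the arms did not overlap there. It was higher at 3 of 3 middle times, where the arms overlapped. The early libraries held 102 counts in the stimulated and 140 in the untreated arm, so these values are descriptions. The gene between the 2, Cx3cl1, had 4.26 to 8.14 CPM in stimulated and 3.88 to 7.38 CPM in untreated libraries, with a late log2 fold change of 0.13 ± 0.11 (adjusted p = 0.369). Of these neighbours, Ccl22 was called in the late phase, Cx3cl1 was not, and Ccl17 was below the filter.

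Ccr4, the receptor of both ligands, rose later than Ccl22. It had 6.34, 5.38, 3.83, 3.11, 2.80, 4.19, 14.2, 17.5, 25.2 and 51.4 CPM in the stimulated libraries from 0 min to 48 h. It had 4.80, 4.76, 3.996, 3.72, 2.68, 1.82, 5.02, 2.91, 2.76 and 4.57 CPM in the untreated libraries. At 2 h, where Ccl22 was already 2.42-fold higher in the stimulated library, the Ccr4 ratio was 1.05, and by 48 h it was 11.3. The late difference was 8.82-fold (log2 3.14 ± 0.24, adjusted p = 6.56e-06), and the arms did not overlap in the late phase. The middle difference was 1.04 ± 0.24 (adjusted p = 0.0135), a call lost without the 3 h pair (0.93, adjusted p = 0.0914) or the 6 h pair (0.664, adjusted p = 0.142), relative to the 0 min pair (0.63, 0.614), with 1 h counted as middle and 6 h as late (0.36, 0.644) and with lane beside a spline (0.55, 0.841). With lane beside a spline of time the late value was 2.45, with an adjusted p of 0.149, the 1 of 18 alternatives that lost the late call.

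**Figure D2:**
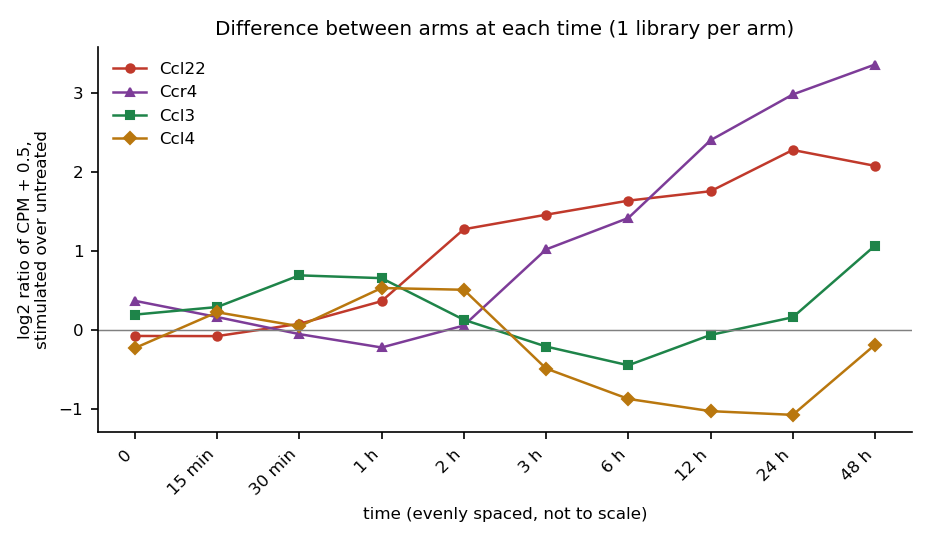
Log2 ratio of CPM + 0.5 in the stimulated over the untreated library (vertical axis) at each of 10 times (horizontal axis, evenly spaced and not to scale) for Ccl22, its receptor gene Ccr4, Ccl3 and Ccl4, 1 library per arm and time. Ccl22 leaves 0 at 1 to 2 h. The Ccr4 ratio is 0.37 at 0 min and 1.02 at 3 h, where its stimulated level (4.19 CPM) is below that at 0 min (6.34 CPM). Ccl4 lies below 0 at 0 min (-0.23) and from 3 h on.

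Ccl3, Ccl4 and Ccl5 sit within 138.9 kb on chromosome 11, Ccl5 at chr11:83525778-83530518, Ccl3 at chr11:83647844-83649355 and Ccl4 at chr11:83662584-83664683, with Ccl9 and Ccl6 between Ccl5 and Ccl3. Per kilobase of transcript, Ccl3 had 13.9 CPM at 0 min and 24.5 CPM at 24 h in the stimulated arm, where Ccl22 had 593 and 3333 CPM, and it changed with time in both arms. Ccl3 had 10.6 CPM at 0 min, 13.02, 15.0 and 11.3 CPM early, 2.88, 2.12 and 3.35 CPM in the middle phase and 12.5, 18.7 and 9.47 CPM late in stimulated libraries. In untreated libraries it had 9.22 CPM at 0 min, 10.6, 9.11 and 7.02 CPM early, 2.59, 2.53 and 4.75 CPM in the middle phase and 13.1, 16.7 and 4.26 CPM late. Both arms dipped at 2 to 6 h and were back at or above the 0 min level at 12 and 24 h.

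Within the stimulated arm, Ccl3 was 4.29-fold lower in middle than in early libraries (log2 -2.10 ± 0.43, adjusted p = 0.00174) and 4.99-fold higher in late than in middle libraries (2.32 ± 0.43, adjusted p = 0.00241). Within the untreated arm, it was 2.56-fold lower in middle than in early libraries (-1.36 ± 0.42, adjusted p = 0.0282) and 3.602-fold higher in late than in middle libraries (1.85 ± 0.42, adjusted p = 0.0141). In the stimulated arm both calls held with each pair left out. In the untreated arm the fall was lost without the 15 min, 30 min, 2 h or 3 h pair (adjusted p = 0.08 to 0.123) and the return without the 2 h, 3 h or 24 h pair (0.0658 to 0.102); with lane as a term they were -0.83 (0.209) and 1.12 (0.272). With 1 h counted as middle and 6 h as late, none of these 4 differences passed (adjusted p = 0.151 to 0.386). Scaling by library totals alone moved the median of all genes by 0.136 log2 downwards for middle against early in the stimulated arm, so these within-arm values are read relative to the bulk of genes.

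Between the arms, Ccl3 was higher in stimulated libraries at 3 of 3 early times without overlap, but the difference did not pass (log2 0.58 ± 0.19, adjusted p = 0.153). Without the 48 h pair, which is in the fit for its spread, the early value of 0.58 passed (adjusted p = 0.034). The middle difference was -0.14 ± 0.22 (adjusted p = 0.713) and the late difference 0.42 ± 0.19 (adjusted p = 0.113). Without the 12 h pair the late value was 0.65 (adjusted p = 0.0372).

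Ccl4 shared the dip, and in the late phase it was the 1 ligand of the 6 that was called lower in stimulated libraries. Ccl4 had 3.37 CPM at 0 min, 4.73, 4.56 and 4.86 CPM early, 2.49, 0.941 and 0.381 CPM in the middle phase and 3.63, 3.20 and 1.21 CPM late in stimulated libraries. It had 4.04 CPM at 0 min, 3.98, 4.40 and 3.21 CPM early, 1.60, 1.52 and 1.115 CPM in the middle phase and 7.93, 7.30 and 1.45 CPM late in untreated libraries. At each of the 3 late times the stimulated library was lower, though the ranges of the arms overlapped. The late log2 fold change was -0.88 ± 0.29, a 1.85-fold lower level (adjusted p = 0.0344). It lost the call without the 15 min, 30 min, 12 h or 24 h pair (-0.88, -0.88, -0.78 and -0.72, with adjusted p = 0.053 to 0.192), relative to the 0 min pair (-0.61, adjusted p = 0.581) and with a spline of time (-0.43, adjusted p = 0.718), and turned to 1.01 with a spline and lane (adjusted p = 0.802). Its early difference was 0.31 ± 0.27 (adjusted p = 0.632), with the stimulated library higher at 3 of 3 early times without overlap. Its middle difference was -0.25 ± 0.34 (adjusted p = 0.642). The late minus early difference was -1.20 ± 0.40 (adjusted p = 0.0572).

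Within the arms, Ccl4 was 3.37-fold lower in middle than in early stimulated libraries (log2 -1.75 ± 0.62, adjusted p = 0.0326), and the untreated value was -1.37 ± 0.61 (adjusted p = 0.106). It was 4.07-fold higher in late than in middle untreated libraries (2.03 ± 0.62, adjusted p = 0.0437), and the stimulated value was 1.10 ± 0.62 (adjusted p = 0.207). The call in the stimulated arm held in 9 of 16 and that in the untreated arm in 7 of 16 alternative settings, and leaving out any of 7 of the 10 pairs ended the untreated call (adjusted p = 0.0757 to 0.166). Leaving out the 15 min, 30 min, 1 h, 3 h or 6 h pair ended the stimulated one (0.0776 to 0.124). Without the 48 h pair, the untreated fall (-1.37, adjusted p = 0.0221) and the stimulated return (1.48, adjusted p = 0.0315) were called as well. Ccl3 and Ccl4 levels correlated with r = 0.77 over the 20 libraries, which share their times, 0.73 over the 10 stimulated and 0.91 over the 10 untreated libraries.

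In these within-arm comparisons the shares of all genes called set the scale. In the stimulated arm 3 of 3 ligands were called for middle against early, where 41.3% of all genes were, and 1 of 3 for late against middle, where 21.6% were. In the untreated arm 2 of 3 were called for middle against early (25.4% of all genes) and 2 of 3 for late against middle (12.0%). For late against early, 1 of 3 was called in the stimulated arm (54.9% of all genes) and 0 of 3 in the untreated arm (42.6%), where edgeR's unadjusted p was under 0.05 for Ccl22 alone (0.034) and DESeq2 called 0.

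Ccl5 was close to the limit of counting. It had 13, 18, 22, 12, 18, 12, 8, 6, 13 and 22 counts in the stimulated libraries from 0 min to 48 h, and 9, 20, 13, 21, 12, 9, 7, 4, 0 and 4 counts in the untreated ones. The late libraries held 41 counts in the stimulated arm and 8 counts in the untreated arm, and the late arms did not overlap (0.117 to 0.415 CPM against 0 to 0.0839 CPM). The gene did not pass the filter. A fit with no filter, over 28029 genes, gave a late log2 fold change of 2.31. For late against early it gave -0.18 within the stimulated arm and -2.45 within the untreated arm. The p-values of that fit were not used to describe Ccl5, because without the filter they were far smaller than in the fit with it for some genes. These values are descriptions.

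Cxcl16 (chr11:70453983-70459984) had 0 counts in all 20 libraries, which allows at most 0.0492 to 0.0814 CPM per library if its reads could be counted. In GENCODE M21, 552 of its 3021 exon bases, 18.3%, overlap Zmynd15 on the opposite strand. The counting mode is not given in the sources used here, and the part of that overlap in the 0 was not tested. No statement on CXCL16 expression can be drawn from these counts.

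Of the other receptors, 2 were lower in late stimulated libraries. In the late phase 1 of 4 receptors tested was called higher and 2 lower, with a median log2 fold change of -0.68, against -0.0037 over all genes tested, where 17.8% were called higher and 18.3% lower. Cxcr6, the CXCL16 receptor, ranged from 0.207 to 1.09 CPM in late stimulated and from 1.26 to 2.16 CPM in late untreated libraries, without overlap (log2 -1.83 ± 0.37, adjusted p = 0.00292). Ackr2, a decoy receptor that clears inflammatory CC chemokines, had 1.27, 0.893 and 4.26 CPM in late stimulated libraries, against 3.23, 3.04 and 7.88 CPM in late untreated ones (-1.23 ± 0.19, adjusted p = 0.000446). Each of these 2 was lower in the stimulated library at 3 of 3 late times. Lane beside a spline of time ended both calls (adjusted p = 0.25 for Cxcr6 and 0.117 for Ackr2), as did values relative to the 0 min pair (0.0685 and 0.072).

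Ccr1, a receptor of CCL3 and CCL5, did not differ past the threshold in the late phase (-0.12 ± 0.14, adjusted p = 0.533) and was lower in stimulated libraries in the middle phase (-0.71 ± 0.14, adjusted p = 0.00608). It fell with time in both arms, late against early by 1.07 on the log2 scale in the stimulated arm (adjusted p = 0.0115, and 0.0651 without the 12 h pair) and by 1.26 in the untreated arm (adjusted p = 0.00711). In the middle phase Ackr2 was also lower (-0.997 ± 0.17, adjusted p = 0.00309), so that of 4 receptors 1 was higher and 2 lower, against 20.5% of all genes called in either direction. The middle calls of Ccr1 and Ackr2 were lost with lane beside a spline (adjusted p = 0.702 and 0.291), relative to the 0 min pair (0.277 and 0.271) and with 1 h counted as middle and 6 h as late (0.0501 and 0.127), where Ackr2 stood at -0.54, and that of Ackr2 also with a spline alone (0.121). In the early phase, where 2.24% of all genes were called, 0 of 4 receptors were called, 0 had an unadjusted p under 0.05, and DESeq2 called 0. Ccr3 stayed at or below 0.783 CPM in stimulated and 0.488 CPM in untreated libraries and was not tested. Of the proteases that cut these ligands, Adam10 had 181 to 224 CPM in stimulated and 188 to 227 CPM in untreated libraries. Adam17 had 132 to 154 CPM in stimulated and 126 to 154 CPM in untreated libraries. In the late phase 0 of these 2 were called, against 36.1% of all genes, 0 had an unadjusted p under 0.05, and DESeq2 called 0. Dpp4, which trims CCL22, stayed at or below 0.0985 CPM in stimulated and 0.0718 CPM in untreated libraries.

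**Figure D3:**
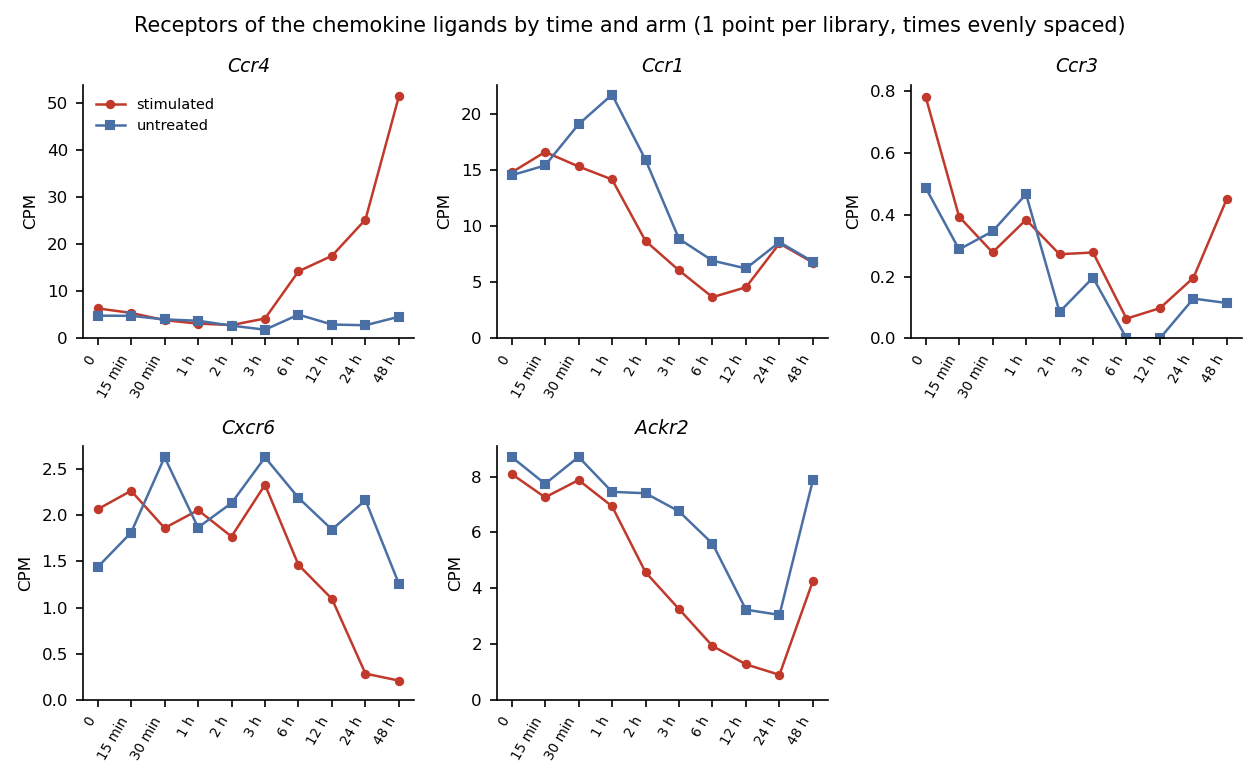
CPM (vertical axes, each from 0) of 5 receptors of the described ligands at 10 times (horizontal axes, evenly spaced and not to scale) in the stimulated (circles) and untreated (squares) arm, 1 point per library. Ccr4 reaches 51.4 CPM at 48 h in the stimulated arm, while Cxcr6 and Ackr2 end below their untreated levels.

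Among the 32 other chemokine ligand genes, 14 had 0 counts in all 20 libraries and 7 were tested. In the late phase 3 of these 7 were called higher in stimulated libraries, none lower, and 4 did not pass, with a median log2 fold change of 0.38, against 17.8% of all genes higher and 18.3% lower. Ccl9, a ligand of Ccr1 that lies between Ccl5 and Ccl3, averaged 6.999 ± 3.58 CPM in late stimulated and 0.549 ± 0.131 CPM in late untreated libraries (SD, n = 3 times each; log2 3.64 ± 0.30, SE, adjusted p = 1.05e-05). Xcl1, the ligand of Xcr1, averaged 3.97 ± 2.23 CPM in late stimulated and 0.471 ± 0.494 CPM in late untreated libraries (3.34 ± 0.48, adjusted p = 0.000344). Ccl1, the ligand of CCR8, averaged 7.68 ± 4.89 CPM in late stimulated and 4.73 ± 3.84 CPM in late untreated libraries (1.05 ± 0.33, adjusted p = 0.0278). The Ccl1 call was lost without the 24 h pair (1.22, adjusted p = 0.0743) or the 48 h pair (0.65, 0.0822), and Ccl1, which had 2 counts at 0 min in the stimulated library and 0 in the untreated one, turned to -3.14 relative to that pair (0.708). It also lost the call with a spline (1.34, 0.174) and with a spline and lane (2.47, 0.409). Lane beside a spline ended the calls of Ccl9 (3.58, adjusted p = 0.141) and Xcl1 (4.11, 0.0838), and Xcl1 also lost it relative to the 0 min pair (3.54, 0.503). Without the 12, 24 or 48 h pair, Xcl1 did not pass the filter. Along the chromosome 11 cluster, Ccl9 was thus called higher while its neighbours Ccl6 (-0.22 ± 0.23, adjusted p = 0.473) and Ccl3 did not pass and Ccl4 was called lower.

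Of 17 other chemokine receptors, 11 were tested, and in the late phase 6 were called higher in stimulated than in untreated libraries, 2 lower, and 3 did not pass (median log2 0.77), against 17.8% of all genes higher and 18.3% lower. Within the stimulated arm, late against early, 2 of the 11 were higher and 4 lower (median -0.20), where 54.9% of all genes were called, and within the untreated arm 0 were higher and 3 lower (median -0.29), where 42.6% were. The largest differences between the late arms were those of Ackr4, a decoy receptor for CCL19, CCL21 and CCL25, which was lower in stimulated libraries (-3.06 ± 0.41), the CCL25 receptor gene Ccr9, also lower (-1.40 ± 0.41), Cxcr3, which was higher (1.26 ± 0.35), and the CXCL12 receptor gene Cxcr4, also higher (1.08 ± 0.06). Cxcr4 ranged from 127 to 169 CPM over the 10 stimulated and from 62.3 to 136 CPM over the 10 untreated libraries, and late against early it differed by 0.39 ± 0.11 in the stimulated arm (adjusted p = 0.00917) and by -0.29 ± 0.12 in the untreated arm (adjusted p = 0.056). Without the 12 h pair Ccr9 (-1.01, adjusted p = 0.13) and Cxcr3 (1.15, 0.0575) lost their calls, as did Cxcr3 without the 48 h pair (0.96, 0.0938) and with a spline (0.86, 0.217). Relative to the 0 min pair Ccr9 (-0.96, 0.454) and Cxcr3 (2.19, 0.249) lost them too, and with lane beside a spline so did Ackr4 (-1.89, 0.212; -3.79 without the 48 h pair), Ccr9 (-0.87, 0.609) and Cxcr3 (1.15, 0.641).

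Of 16 tested genes that carry the signals of LPS, IL-4 and TGF-beta, 6 were called higher and 3 lower in late stimulated libraries, against the same 17.8% and 18.3% of all genes. Among them were the NF-kappaB subunit genes Nfkb2 (1.53 ± 0.10) and Relb (0.60 ± 0.09), the LPS receptor gene Tlr4 (-1.18 ± 0.25) and the TGF-beta receptor gene Tgfbr1 (1.00 ± 0.14). These 4 passed in edgeR's quasi-likelihood test with Benjamini-Hochberg adjustment. With lane beside a spline, Relb (0.41, adjusted p = 0.427), Tlr4 (-0.85, 0.303) and Tgfbr1 (0.74, 0.444) lost their calls, and relative to the 0 min pair Tlr4 (-1.42, 0.0875) and Tgfbr1 (0.93, 0.0713) did.

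**Figure D4:**
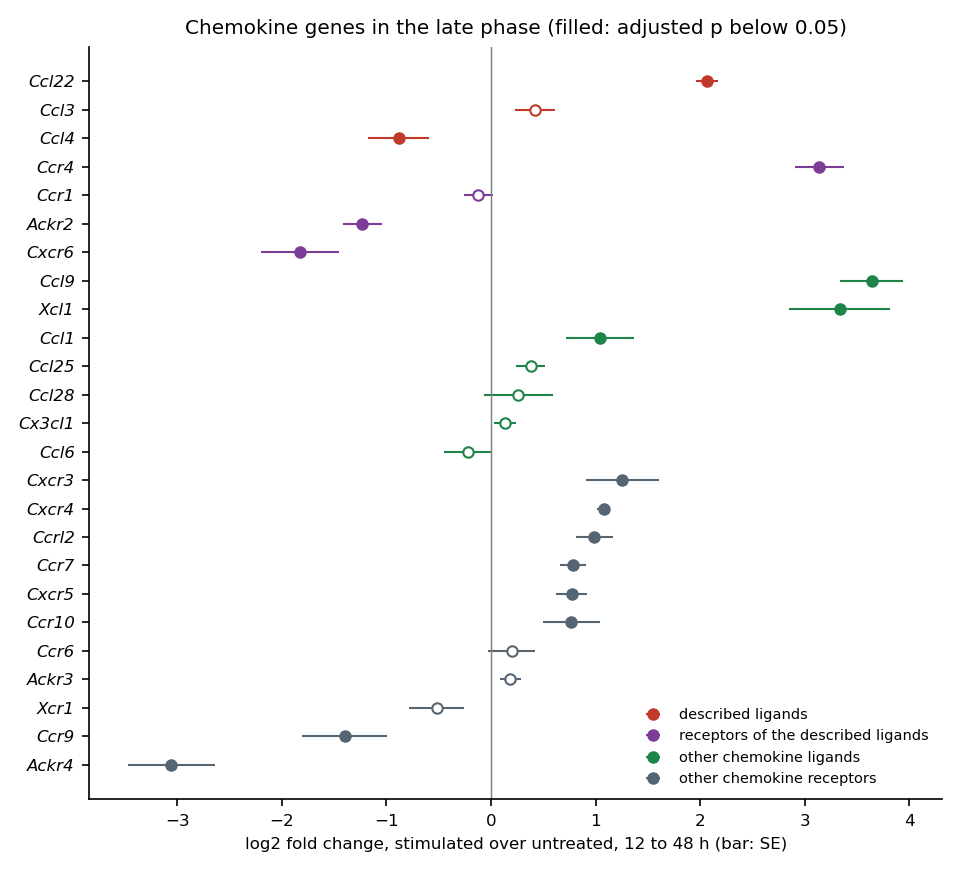
Log2 fold change of stimulated over untreated libraries at 12 to 48 h (horizontal axis, bars are SE) for each tested chemokine gene (rows), coloured by group; filled points have an adjusted p below 0.05 in edgeR's quasi-likelihood test. Ccl22 stands at 2.07 and Ccl4 at -0.88 among the described ligands, and Ccr4 at 3.14 among their receptors.

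The genes whose levels ran closest to Ccl22 over the 20 libraries, among 9058 genes with a mean of at least 5 CPM, were Traf1 (r = 0.968), an adaptor of TNF receptors, Slc31a2 (0.967), a copper transporter, Elk3 (0.961), an ETS transcription factor, Ptgs1 (0.959), a cyclooxygenase, and Rras2 (0.958), a small GTPase. By the log2 ratio of the arms over the 10 times, the closest were Ifngr2 (0.992), an interferon-gamma receptor chain, Eif2b5 (0.989), Aebp2 (0.989), Stab1 (0.987) and Abcc1 (0.986). Ccl22 and Ccr4 correlated with r = 0.69 over the 20 libraries and with 0.85 in their ratios over 10 times; within the untreated arm the value was -0.44. For Ccl3 the closest by level were Adrbk1 (0.913), Kdm5c (0.856), Tox (0.852), Impa2 (0.846) and Immp1l (0.843), and by ratio Cdip1 (0.977), Ror2 (0.953), Triobp (0.953), Reep4 (0.937) and Gnb2 (0.935). For Ccl4 they were Ppip5k2 (0.800), Tnfaip8 (0.798), B3gnt2 (0.784), Thoc2 (0.783) and Adrbk1 (0.782) by level, and Spred2 (0.971), Atg16l2 (0.954), B3gnt2 (0.951), Setd1a (0.944) and Zfp36l2 (0.940) by ratio. These correlations describe libraries that share their times and 1 mouse per arm, and were picked as the highest of many.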

How the data were processed

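The authors deposited read counts per gene; the submitters' processing notes name STAR, HTSeq and the builds GRCm38.p3 and mm10, while tool versions, annotation and strand setting were not given in the sources used here. The 20 files, 1 per arm and time, gave 41115 genes. Counts were tested with edgeR 4.0.16 in R 4.3.3: TMM scaling, genes with at least 1 CPM in 3 libraries (12042 in the 18 libraries after 0 min, 12139 in all 20), quasi-likelihood F-tests with time as a factor, and Benjamini-Hochberg adjustment over all genes tested, with a threshold of 0.05. SE is the log2 fold change divided by the square root of F. Courses over time used a natural spline of 3 degrees of freedom, and changes within an arm a fit of 8 groups of arm and phase. CPM is the count per 1000000 counts of the library. Log2 ratios at single times use a pseudocount of 0.5 CPM, fold values at single times use none, and neither uses TMM scaling. The fits were tested on simulated data. Alternatives were RLE and total scaling, DESeq2 1.42.0, other filters, phase limits, lane, the 0 min pair as baseline, and each pair left out; splines in place of the time factor, and comparisons with the middle phase within an arm, were chosen after seeing the data. The genes described, the lists and the tests were chosen with earlier results of these data known. The text names all 6 ligands, 5 of their receptors, 3 proteases and at most 4 called genes per other list with the largest late change, and 5 genes of most like pattern for each ligand with a mean of at least 1 CPM. Some receptor and marker results are not reported here. Promoters were found in RefSeq for 3 of the 6 ligands.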

Additional observations from a re-analysis of the deposited data

Results flagged for a closer look

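The difference between the arms changed between phases for 4 genes, by edgeR's quasi-likelihood test of the difference itself. For early to late, 1 of 3 ligands and 3 of 4 receptors tested were called, against 19.7% of all genes. From early to late it changed by 1.94 on the log2 scale for Ccl22, by 3.16 for Ccr4, by -1.83 for Cxcr6 and by -1.13 for Ackr2 (adjusted p = 8.48e-05, 0.000191, 0.0223 and 0.00861). From middle to late it changed by 0.54 for Ccl22 and by 2.10 for Ccr4 (1 of 3 ligands and 1 of 4 receptors called, against 6.74% of all genes). The early to late change of Cxcr6 lost its call without the 15 min, 1 h, 24 h or 48 h pair (adjusted p = 0.0569 to 0.0858) and with moved phase limits (-1.35, 0.166). Lane beside a spline of time ended the calls of Ccr4 (2.65, 0.0596), Cxcr6 (-1.68, 0.124) and Ackr2 (-0.95, 0.231), and a spline alone that of Ackr2 (-1.16, 0.135). In the stimulated arm, Ccr4 at 48 h (51.4 CPM) stood apart from the other 9 libraries of that arm, the 1 such value among 20 sets of 10 libraries examined; chance gives about 1 in 20.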

How the results depend on the processing

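No paired analysis was possible beyond the pairing by time, because the labels carry no replicate numbers. Ccl22 kept its direction and its call in the middle phase, the late phase and for late minus early under each of 18 alternatives. Over all times Ccl22 missed the threshold with a spline and lane (0.65), with DESeq2 (1.26) and when the 0 min pair was subtracted (1.34), where 0 ligands were called in each. Lane could not be fitted beside the time factor for a difference within a phase. For late minus middle, Ccl22 missed it with DESeq2 (0.56), a 5 CPM filter (0.55), lane (0.36), a spline (0.42) and a spline and lane (0.26), with 0 ligands called in each, and ranged from 0.44 to 0.68 (0 to 1 called) with a pair left out; 2 were called with no filter or moved phase limits. With no filter, Ccl22 passed early (0.15), and 2 ligands were called early, 4 late, 2 for late minus early and 1 for late against early untreated. Of all genes with no filter, 747 of 28029 were called early, 4802 late and 2777 for late minus early. For late against early untreated it was 4705 of 28357. The late count of ligands includes Ccl5, and the 1 ligand called for late against early untreated is Ccl5. In the late phase Ccl5 had 41 counts in stimulated and 8 in untreated libraries. The p-values of that fit were far smaller for some genes. Apart from these counts of calls, they were not used for Ccl5 and Ccl17. DESeq2 called 2 for late minus early. Late calls numbered 1 with a 5 CPM filter, relative to 0 min and with either spline. With a pair left out, calls ranged from 0 to 1 early, from 1 to 2 late, from 1 to 2 for late minus early and from 0 to 3 for late against early untreated.

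Some signs turned among the 6 ligands; the late Ccl4 value had been called, and the others had passed no test. Ccl4 became 1.06 over all times and 1.01 late with a spline and lane, and in the middle phase 0.0076 relative to 0 min, 0.33 with moved limits and 0.26 with a spline and lane; for late minus middle it became 0.79 with a spline and 0.74 with lane added. Moved limits turned Ccl3 to 0.31 in the middle phase, to -0.073 for late minus middle and to -0.16 for late against early stimulated, Ccl4 to -0.31 for late against middle stimulated and Ccl22 to 0.035 for late against middle untreated. With a pair left out, Ccl3 ranged from -0.32 to 0.029 (middle), -0.48 to 0.069 (late minus early) and -0.13 to 0.45 (late against early stimulated), and Ccl4 from -0.97 to 0.14 (middle) and -1.02 to 0.089 (late minus middle). The cause was not tested. A pseudocount of 2 CPM turned no ratio at a single time. Depth limits Ccl5, Ccl17 and Ccl4 at 6 h, with 8, 43 and 18 counts in the stimulated library.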
